A study of Mus musculus with 8 samples.

Results

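The genes Plau, Plat, Plaur, Serpine2, Serpinb2 and Serpinf1, plasminogen activators, their receptor and serpins, were examined in RNA-seq libraries of primary murine cardiac fibroblasts. They were picked by symbol from the 22274 genes of the count table, and all 6 were found there. The libraries form 2 groups of 4, labelled GFP and OEIRF7. Both groups were primary mouse cells exposed to TGF-β, a cytokine that drives fibroblasts towards the myofibroblast state, at 5 ng/ml for 24 h. Beforehand the cells labelled GFP had received a control virus and those labelled OEIRF7 a virus for the overexpression of IRF7, an interferon regulatory transcription factor. The virus is an adenovirus by the study's methods, with a FLAG-tagged IRF7 against an empty vector, and an adeno-associated virus by the deposited description. No library without virus or without TGF-β was analysed here, so each difference below is one between viruses in TGF-β-treated cells. The study calls its replicates of cultured cells biological, with a number that differs from the libraries per group here, and the labels do not tie libraries to separate animals or cultures, so p-values measure only the spread between these libraries.

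Urokinase (Plau) and tissue plasminogen activator (Plat) are serine proteases that cleave plasminogen to plasmin, a protease of fibrin and of matrix proteins that can also free TGF-β from its latent form. The urokinase receptor (Plaur) holds urokinase at the cell surface. Serpins stop such proteases by forming a covalent complex with them. Serpinb2 (plasminogen activator inhibitor-2) is a largely intracellular inhibitor of urokinase, and Serpine2 (protease nexin-1) inhibits thrombin, urokinase and plasmin. Serpinf1 encodes pigment epithelium-derived factor (PEDF), a serpin with no known protease target that is known for restraining angiogenesis. In the heart, this system takes part in matrix turnover and scar formation after injury.

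The library totals ran from 24888589 to 27095611 counts in the libraries labelled GFP and from 24454801 to 28658826 in those labelled OEIRF7. Mouse Irf7, the targeted gene, had 107, 147, 92.0 and 126 CPM (counts divided by the library size after TMM scaling, the usual unit of level between libraries) in the libraries labelled GFP and 14.9, 14.5, 14.9 and 16.4 CPM in those labelled OEIRF7. It was thus lower under the label of overexpression. The IRF7 adenovirus among the study's reagents is named for the human gene, in which case the mouse counts do not measure the transgene and do not check the labels. The adeno-associated vector, described in the study for injection into mice, is named for the mouse gene. With that vector the counts would go against the labels. Every direction below is therefore that of the libraries labelled OEIRF7, and would turn if the labels were exchanged. Fibroblast markers were abundant, with a summed level of 14917 to 15387 CPM over 10 markers in the libraries labelled GFP and 13753 to 14891 CPM in those labelled OEIRF7.

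Of the 6 genes, all of which were high enough to be tested, 4 were higher in the libraries labelled OEIRF7, 1 was lower and 1 did not pass the test. Plaur rose about 5-fold, Serpinb2 also rose strongly from a very low level, and Plau nearly doubled. Serpine2 and Serpinf1 differed only slightly, in opposite directions, and Plat, the second activator, was not called. A gene was called at an adjusted p under 0.05 in edgeR's quasi-likelihood test, adjusted over the 13533 genes tested. By this rule 58.9% of all tested genes were called, 29.0% as higher and 29.9% as lower, and the 5 of 6 called here are read against a table in which most genes were called. With a log2 fold change past 1 as well, 2 of the 6 genes (Plaur and Serpinb2) were called, against 8.56% of all tested genes. The groups did not overlap in 4 of the 6 (Plaur, Plau, Serpinb2 and Serpine2), against 53.8% of all tested genes. The median log2 fold change over all tested genes was 0.00 and the median size was 0.25, beyond which Plaur, Serpinb2 and Plau stood and Plat, Serpine2 and Serpinf1 did not.

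**Figure D1:**
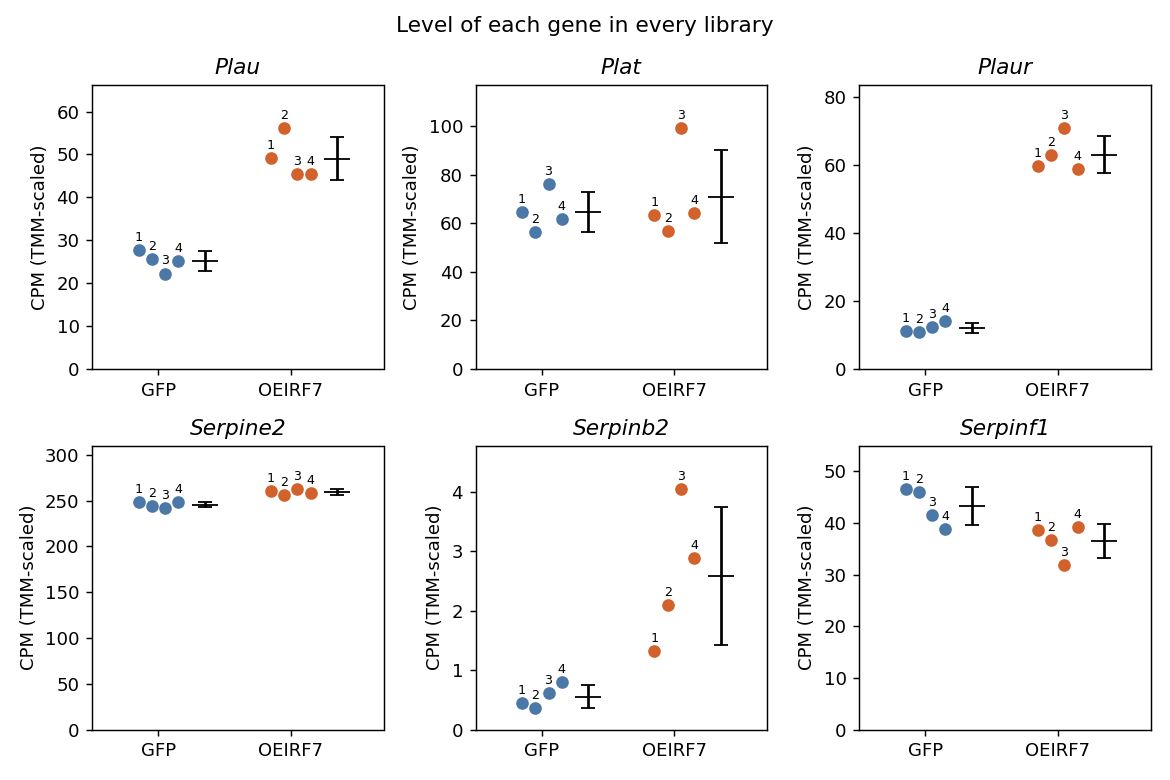
CPM after TMM scaling of the 6 genes in each library, on a linear axis from 0 in each panel. Points are libraries with their replicate numbers, and bars to the right give the mean ± SD of 4 libraries. The groups are apart for Plau, Plaur, Serpine2 and Serpinb2 and overlap for Plat and Serpinf1.

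Of the activators, Plau (ENSMUSG00000021822; GRCm38 chromosome 14, 20836660 to 20843385, plus strand) had 27.7, 25.7, 22.2 and 25.2 CPM in the libraries labelled GFP, replicates 1 to 4, and 49.3, 56.1, 45.5 and 45.3 CPM in those labelled OEIRF7. Every library labelled OEIRF7 was above every library labelled GFP. The means were 25.2 ± 2.26 and 49.0 ± 5.05 CPM (SD, n = 4 each), a fold of 1.95 with a 95% interval of 1.74 to 2.18. The log2 fold change was 0.96 (SE 0.076, edgeR adjusted p = 6.5e-08), and an exact permutation test on log2 CPM (two-sided) gave p = 0.029, the smallest that 4 against 4 libraries allow. Leaving out 1 library at a time moved the log2 fold change of Plau between 0.89 and 1.01, the highest without GFP replicate 1.

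Plat (ENSMUSG00000031538; chromosome 8, 22757727 to 22782844, plus strand) gave 64.7, 56.5, 76.0 and 61.6 CPM in the libraries labelled GFP and 63.4, 56.8, 99.1 and 64.1 CPM in those labelled OEIRF7. Replicate 3 was the highest in both groups, and apart from it the groups lay in the same range. The log2 fold change was 0.13 (SE 0.14, edgeR adjusted p = 0.44), and its 95% interval from -0.17 to 0.43 leaves room for a modest difference in either direction. Without OEIRF7 replicate 3 it was -0.08 (edgeR adjusted p = 0.42). The levels of the activators per transcript length were compared within each library through FPKM, the authors' values scaled to transcript length and depth. The ratio of Plau to Plat FPKM was 0.468, 0.490, 0.315 and 0.441 in the libraries labelled GFP and 0.838, 1.07, 0.495 and 0.762 in those labelled OEIRF7. The ratio was higher in each library labelled OEIRF7 than in any labelled GFP, though OEIRF7 replicate 3, with its high Plat, came close to GFP replicate 2.

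The largest difference among the 6 genes was that of the receptor. Plaur (ENSMUSG00000046223; chromosome 7, 24462484 to 24475968, plus strand) had 11.1, 11.0, 12.3 and 14.1 CPM in the libraries labelled GFP and 59.7, 62.9, 70.9 and 59.0 CPM in those labelled OEIRF7. The lowest library labelled OEIRF7 was far above the highest labelled GFP, from counts of 274 to 370 and of 1455 to 1825. The means were 12.1 ± 1.45 and 63.1 ± 5.43 CPM (SD, n = 4 each), a fold of 5.21 with a 95% interval of 4.62 to 5.86. The log2 fold change of 2.38 (SE 0.080, edgeR adjusted p = 1.3e-11; exact permutation p = 0.029) ranked 113th from the top among the 13533 tested genes and 41st by p-value. Of all 17 alternative settings, limma on log2(FPKM + 1) gave the lowest value, 2.27.

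The receptor also changed its place relative to its ligand. The ratio of Plaur to Plau FPKM was 0.625, 0.665, 0.859 and 0.880 in the libraries labelled GFP and 1.89, 1.75, 2.43 and 2.03 in those labelled OEIRF7. Transcripts of the ligand thus outnumbered those of the receptor in each library labelled GFP, and the reverse was seen in each labelled OEIRF7. These are transcript levels, and protein at the cell surface was not analysed here.

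Plaur and Serpinb2 are the genes with a log2 fold change past 1, so the 250 bases before their annotated starts are shown here. They come from RefSeq on GRCm38.p6, Plaur at chr7:24462233-24462482 and Serpinb2 at chr1:107511173-107511422, both on the plus strand. Capitals mark matches to the AP-1 motif TGANTCA and, in Serpinb2, to the TATA box TATAAA.
Plaur: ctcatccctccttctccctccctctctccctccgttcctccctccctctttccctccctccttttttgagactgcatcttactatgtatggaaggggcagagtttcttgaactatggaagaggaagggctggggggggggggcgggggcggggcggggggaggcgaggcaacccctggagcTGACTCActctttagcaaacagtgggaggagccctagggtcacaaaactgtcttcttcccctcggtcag
Serpinb2: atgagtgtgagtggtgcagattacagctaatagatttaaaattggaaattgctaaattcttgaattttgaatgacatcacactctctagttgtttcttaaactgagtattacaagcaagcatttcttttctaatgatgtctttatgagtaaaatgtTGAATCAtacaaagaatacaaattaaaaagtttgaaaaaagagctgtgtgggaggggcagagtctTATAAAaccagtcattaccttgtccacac
AP-1 is a family of Fos and Jun dimers known to act on many genes of matrix breakdown.

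The AP-1 motif was found at -69 to -63 in Plaur and at -94 to -88 in Serpinb2, counted from the annotated start, and in neither Serpine2 nor Serpinf1. Of 32851 RefSeq windows of the same 250 bases, 6.75% held it on either strand. The TATA box of Serpinb2, at -29 to -24, was searched on the plus strand only, where 7.59% of the windows held it. The GC box GGGCGG, searched on both strands, occurred 3 times in Plaur between -111 and -95 and 6 times in Serpine2, with some copies sharing a base. It was in 32.7% of the windows. The SMAD box CAGAC, the core bound by transcription factors of TGF-β signalling, was in Serpine2 once and in Serpinf1 at 2 places, and in 42.2% of the windows. The letters GAAANNGAA, the core of the element bound by interferon regulatory factors, and the κB motif were in none of the 4 windows, and in 7.13% and 3.90% of all windows. A match is a description of the letters and no measurement of binding, and a missing match covers these 250 bases only. The second RefSeq start of Serpinb2 lies a short way downstream, and its window holds the same AP-1 and TATA matches. Plat and Plau have no entry among these windows.

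**Figure D2:**
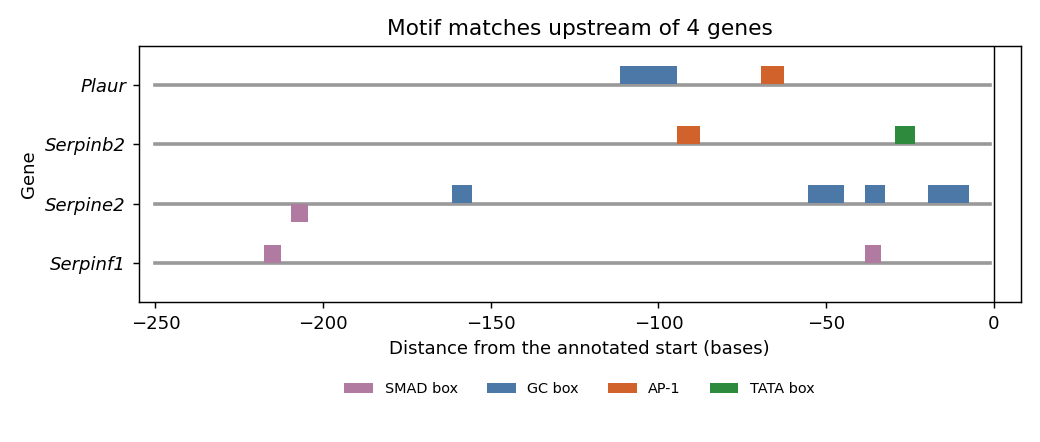
Motif matches in the 250 bases before the annotated start of 4 genes, with distance from the start in bases on the horizontal axis. Boxes above a line are on the strand of the gene, boxes below it on the other strand, and the vertical line is the start. Plaur and Serpinb2 hold 1 AP-1 match each, Serpine2 has GC boxes, and Serpinf1 has SMAD boxes only.

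Of the inhibitors, Serpinb2 (ENSMUSG00000062345; chromosome 1, 107511423 to 107535478, plus strand) was by far the lowest. It had 0.448, 0.361, 0.608 and 0.801 CPM in the libraries labelled GFP, from 12, 9, 15 and 21 counts, and 1.32, 2.10, 4.04 and 2.88 CPM in those labelled OEIRF7, from 34, 61, 103 and 71 counts. The groups did not overlap, yet within the libraries labelled OEIRF7 the level differed about 3-fold. The means were 0.554 ± 0.194 and 2.59 ± 1.16 CPM (SD, n = 4 each), a fold of 4.61 with a wide 95% interval of 2.74 to 7.78. The log2 fold change was 2.21 (SE 0.35, edgeR adjusted p = 7.7e-05; exact permutation p = 0.029). With these low counts its size is less firm than that of Plaur, and on the log2(FPKM + 1) scale, which understates low genes, it was 0.83. Serpinb10 overlaps Serpinb2 on the same strand and had no count in any library.

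Serpine2 (ENSMUSG00000026249; chromosome 1, 79794197 to 79861180, minus strand) was the most abundant of the 6. It had 248, 244, 242 and 248 CPM in the libraries labelled GFP and 260, 256, 263 and 258 CPM in those labelled OEIRF7. The groups did not overlap, but their means of 246 ± 2.95 and 259 ± 2.89 CPM (SD, n = 4 each) were close. The log2 fold change was 0.08 (SE 0.029, edgeR adjusted p = 0.033; exact permutation p = 0.029), and its 95% interval reached from 0.02 to 0.14. This call did not hold: it was lost in 6 of the 8 fits that left out 1 library (without GFP replicate 1, 2, 3 or 4 or OEIRF7 replicate 1 or 3), with adjusted p up to 0.084. In FPKM the groups overlapped, with 136 ± 6.73 and 137 ± 4.11 (SD, n = 4 each), and limma on log2(FPKM + 1) gave an adjusted p of 0.84. A change in Serpine2 of the size of those in Plau or Plaur lies outside the interval.

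Serpinf1 (ENSMUSG00000000753; chromosome 11, 75409769 to 75422701, minus strand) was the one gene of the 6 that was lower. It had 46.5, 45.9, 41.6 and 38.8 CPM in the libraries labelled GFP and 38.5, 36.6, 31.9 and 39.2 CPM in those labelled OEIRF7. GFP replicate 4 lay just below OEIRF7 replicate 4, so the groups overlapped in CPM. In FPKM they just failed to overlap, with 31.02 to 35.63 in the libraries labelled GFP and 25.27 to 30.97 in those labelled OEIRF7. The means were 43.2 ± 3.68 and 36.6 ± 3.29 CPM (SD, n = 4 each), and the log2 fold change was -0.24 (SE 0.071, 95% interval -0.39 to -0.09, edgeR adjusted p = 0.0089; exact permutation p = 0.057). The call held in all 17 alternatives, with log2 fold changes from -0.29 to -0.18.

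**Figure D3:**
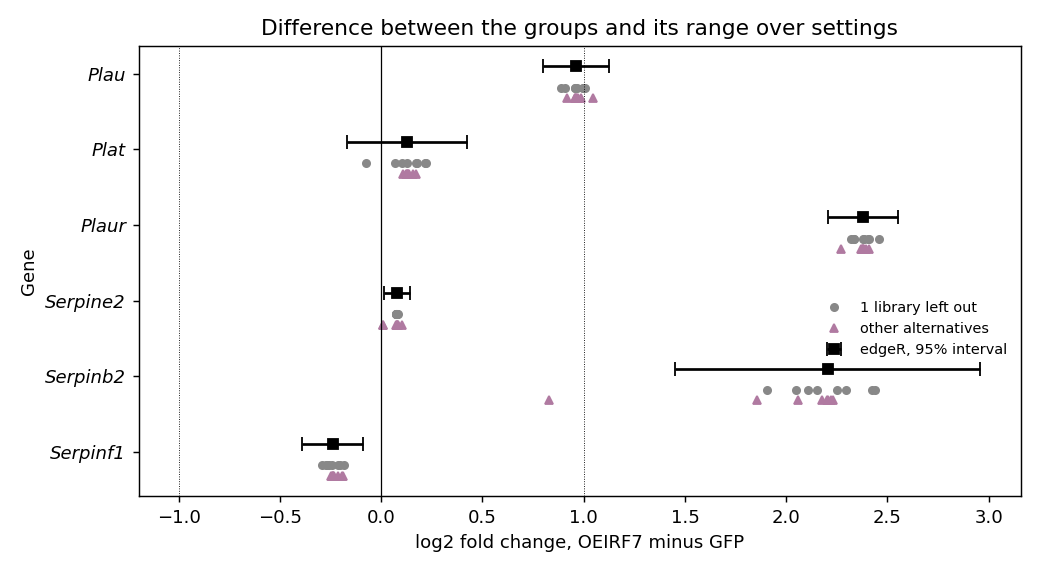
Log2 fold change, OEIRF7 minus GFP, of the 6 genes. Squares with bars are the edgeR estimate and its 95% interval, circles the 8 fits without 1 library, triangles the other alternative settings, and dotted lines mark a size of 1. Plaur stays above 2.2 throughout, Plat has values on both sides of 0, and the lowest triangle of Serpinb2 is the 0.83 of the log2(FPKM + 1) scale.

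Levels of different genes can be set side by side only per length, in FPKM. In the libraries labelled GFP the order was Serpine2 (136 FPKM on average), Serpinf1 (33.4), Plat (25.4), Plau (10.7), Plaur (8.02) and Serpinb2 (0.275), and no neighbours in that order overlapped in their range over the 4 libraries. In the libraries labelled OEIRF7 it was Serpine2 (137 FPKM), Plaur (42.4), Serpinf1 (29.2), Plat (28.3), Plau (21.1) and Serpinb2 (1.32). Plaur thus moved from the fifth to the second place. There the ranges of Serpinf1 (25.3 to 31.0 FPKM) and Plat (22.8 to 39.3 FPKM) overlapped, and so did those of Plat and Plau (19.4 to 24.3 FPKM), so these neighbours did not differ beyond their spread. Plaur, at 39.6 to 47.3 FPKM, stood just above the highest Plat library.

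**Figure D4:**
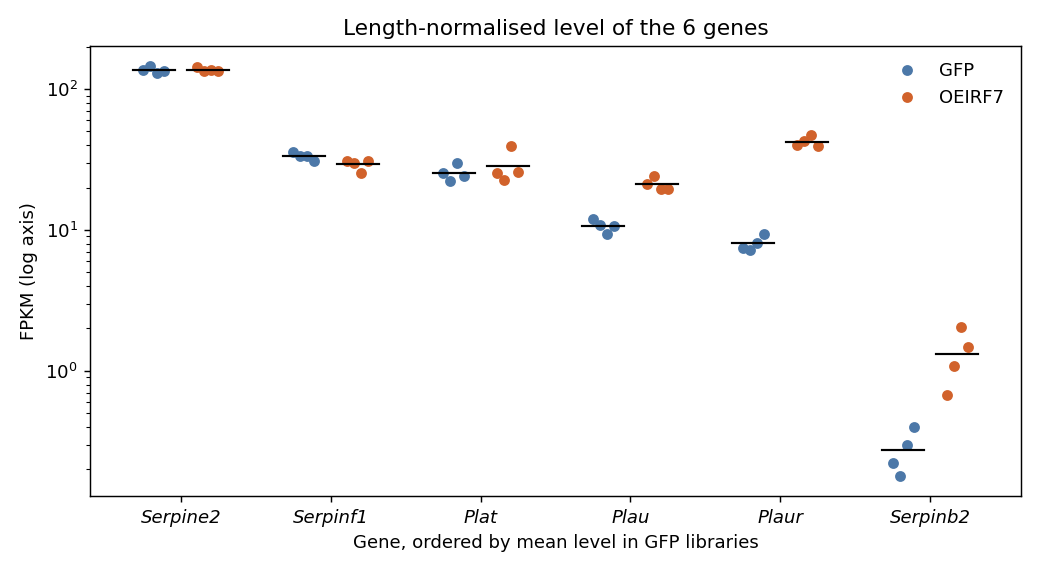
FPKM of the 6 genes on a log axis, in the order of their mean in the libraries labelled GFP. Points are libraries and horizontal lines the means of 4. Plaur passes Serpinf1, Plat and Plau in the libraries labelled OEIRF7, where its mean is 42.4 FPKM, while Serpine2 stays at the top in both groups.

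The terms that the deposited table attaches to each gene put all 6 in the extracellular region (GO), a term of 6.72% of the tested genes. Plat, Plau, Plaur and Serpinb2 also carry the KEGG term for the complement and coagulation cascades, as do 0.458% of the tested genes. The nearest tested genes on either side of the 6 lay from 4063 bases (Smyd4) to 714694 bases (Vps4b) away. Beside Plaur, Serpinb2 and Plau, none shared both the size and the direction of the difference. Smg9 and Cadm4, beside Plaur, had log2 fold changes of 0.48 (edgeR adjusted p = 0.00074) and 0.25 (edgeR adjusted p = 0.076). Camk2g and Vcl, beside Plau, were lower, with log2 fold changes of -0.31 and -0.91 (edgeR adjusted p = 0.0008 and 1.9e-11). The value of Vcl was near that of Plau in size, with the opposite sign. Vps4b and Serpinb8, beside Serpinb2, had small values of 0.14 and -0.20 (edgeR adjusted p = 0.0018 and 0.027). Mrpl44 and Cul3 beside Serpine2 had 0.18 and -0.13 (edgeR adjusted p = 0.029 and 0.017). Ikbkb and Ap3m2 beside Plat, and Smyd4 and Serpinf2 beside Serpinf1, did not pass the test.

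The genes whose profile over the 8 libraries was most like that of Plaur were found by the root mean square distance between log2 CPM values centred on their mean, among tested genes above 5 CPM. They were Mal, which encodes a membrane protein of lipid rafts, Npy, which encodes neuropeptide Y, and Havcr2, which encodes the immune receptor TIM-3, at distances of 0.11, 0.11 and 0.11. Their log2 fold changes were 2.46, 2.30 and 2.26, near that of Plaur, which a choice by likeness of profile favours. For Serpinb2 the nearest profiles were farther away, those of the keratin gene Krt19 (distance 0.37), S100a7a (0.38) and Grem1 (0.38), a secreted antagonist of bone morphogenetic proteins. In Krt19, S100a7a and Grem1, as in Serpinb2, OEIRF7 replicate 3 was the highest library, which the choice by profile also favours. Their levels there were 25.5, 19.4 and 26.3 CPM.

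The rest of the plasminogen system was read from a list of 20 genes, of which 18 were tested. Of these 5 were higher, 2 were lower and 11 did not pass the test. That is 38.9% called, against 58.9% of all tested genes. The median log2 fold change of the 18 was 0.28. The plasminogen receptor genes Anxa2 and Eno1 rose by 0.35 and 0.40 on the log2 scale (edgeR adjusted p = 1.5e-07 and 2e-06), while Plgrkt (-0.03, edgeR adjusted p = 0.74) and S100a10 (0.08, edgeR adjusted p = 0.11) did not pass.

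Receptors of the LDL receptor family clear complexes of the activators with their inhibitors. Among them Lrp1 and Vldlr rose by 0.20 and 0.49 on the log2 scale (edgeR adjusted p = 3.1e-05 and 1.1e-05). Lrp2 fell from 8.97 ± 0.469 to 3.58 ± 0.410 CPM (SD, n = 4 each), a log2 fold change of -1.32 (SE 0.10, edgeR adjusted p = 6e-08). On the log2(FPKM + 1) scale, which understates low genes, the value of Lrp2 was -0.35. Mrc2, a collagen receptor that associates with the urokinase receptor, fell by 0.12 (edgeR adjusted p = 0.023), with groups that overlapped. The other gene of the list past a log2 fold change of 1 was Serpina5, an inhibitor of urokinase and of activated protein C, named here after its values were seen. It was at 0.134 ± 0.108 and 1.15 ± 0.200 CPM (SD, n = 4 each). Plasminogen itself (Plg) was barely present, at 0.598 ± 0.399 and 1.05 ± 0.478 CPM, and did not pass (edgeR adjusted p = 0.16).

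Of 17 genes of coagulation and thrombin signalling, 12 were tested, with 8 higher, 1 lower and 3 not called. That is 75.0% called, against 58.9% of all tested genes. The median log2 fold change of the 12 was 0.56. Procr, the endothelial protein C receptor, had 30.2, 29.3, 35.4 and 31.4 CPM in the libraries labelled GFP and 93.0, 97.2, 95.3 and 88.1 CPM in those labelled OEIRF7, a log2 fold change of 1.56 (SE 0.055, edgeR adjusted p = 2e-11). F2rl1, the protease-activated receptor PAR2, rose from 8.60 ± 1.05 to 22.1 ± 2.86 CPM (SD, n = 4 each), by 1.36 on the log2 scale (SE 0.10, edgeR adjusted p = 3.8e-08). F2r, the thrombin receptor PAR1, rose by 0.36 (edgeR adjusted p = 1e-05), and F3, tissue factor, fell by 0.33 (edgeR adjusted p = 0.0065). The third gene past a log2 fold change of 1 was F2rl3, named after its values were seen, with a mean near 1 CPM in the libraries labelled OEIRF7 (1.26 ± 0.180, SD, n = 4).

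The serpin family is large in the mouse. Of 59 other serpin genes considered, Serpina5 included, 33 were tested, with 17 higher, 5 lower and 11 not called, and 11 past a log2 fold change of 1. That is 66.7% called, against 58.9% of all tested genes. The median log2 fold change of the 33 was 0.70, the value of Serpinf2, which had means of 0.419 and 0.685 CPM and was not called. Above 1 CPM on average, those past 1 were Serpina3g (3.60), Serpinb9e (2.66), Serpinb1b (2.11), Serpinb6c (1.15) and Serpinb9 (-1.17). Serpinb9, an inhibitor of granzyme B, fell from 97.6 ± 7.18 to 43.3 ± 2.41 CPM (SD, n = 4 each). Serpina3g, Serpinb9e, Serpinb1b and Serpinb6c belong to clusters of closely similar copies, among which reads may be hard to assign, so their values are uncertain. Serpinb9 also has copies of like name in the list, and the same caution holds for it. Serpinh1, the collagen chaperone HSP47, fell by 0.40 on the log2 scale (edgeR adjusted p = 1.4e-07). With means of 1580 and 1198 CPM it was the largest part of the summed level of these other serpin genes. That sum was 2818 to 3024 CPM in the libraries labelled GFP and 2599 to 2737 CPM in those labelled OEIRF7. The sum was thus lower although the median log2 fold change was above 0.

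**Figure D5:**
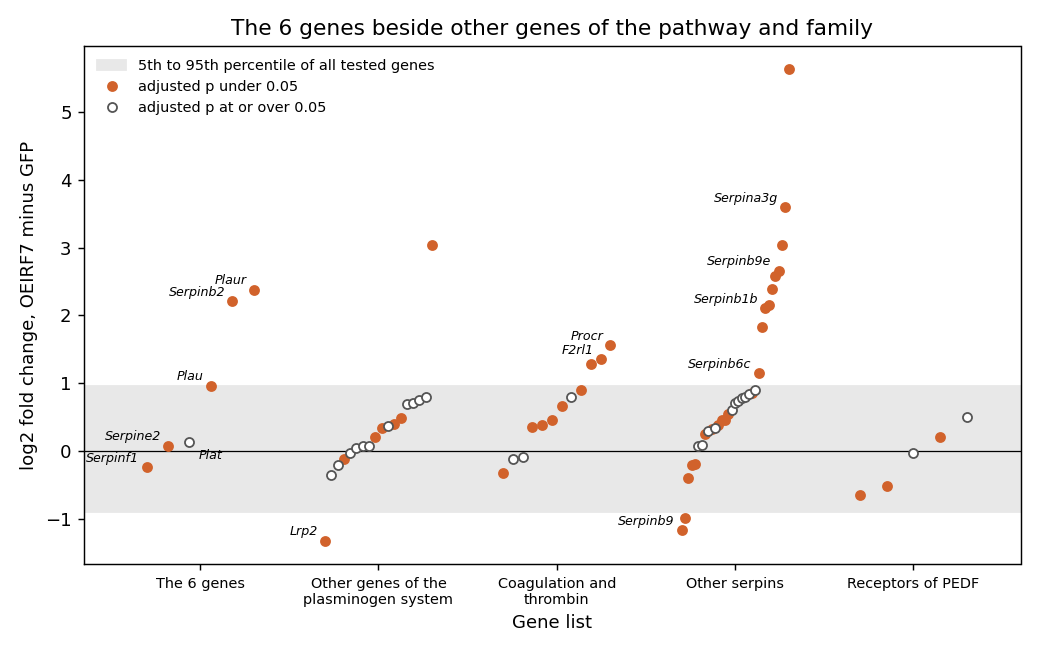
Log2 fold change, OEIRF7 minus GFP, of the 6 genes and of the tested genes of 4 lists, each sorted from low to high. Filled points passed an adjusted p under 0.05 and open points did not, and the grey band spans the 5th to the 95th percentile of all tested genes, -0.90 to 0.96. The unnamed points above 1 have a mean at or under 1 CPM, and Serpina5 is in both the plasminogen and the serpin list.

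PEDF, the product of Serpinf1, has several proposed receptors. Of 5 such genes 1 was higher, 2 were lower and 2 did not pass, with a median log2 fold change of -0.03. That is 60.0% called, against 58.9% of all tested genes. Plxdc2 fell by 0.65 and Lrp6 by 0.52 on the log2 scale (edgeR adjusted p = 9.9e-10 and 8.4e-09), and Pnpla2, the lipase also known as ATGL, rose by 0.21 (edgeR adjusted p = 0.0015). Rpsa, the laminin receptor, had -0.03 (edgeR adjusted p = 0.45), and Plxdc1, which also did not pass, had 0.50 (edgeR adjusted p = 0.067).

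Macrophages, which express the urokinase receptor and Serpinb2, and other cells of the heart could be present in such cultures. Of 10 macrophage markers 6 were higher and none lower, which is 60.0% called. Of all tested genes 58.9% were called, 29.0% as higher and 29.9% as lower. The summed level of the macrophage markers was 293 to 348 CPM in the libraries labelled GFP and 384 to 423 CPM in those labelled OEIRF7. These ranges do not overlap, but most of the sum was Lyz2, with means of 202 and 235 CPM. Itgam, Cd14 and Mrc1 rose by 1.07, 1.21 and 1.05 on the log2 scale, whereas Csf1r and Ptprc had 0.06 and -0.08 and did not pass (edgeR adjusted p = 0.54 and 0.64). Their part in the differences of Plaur, Plau and Serpinb2 was not tested, and in these bulk libraries more cells of a type and more RNA per cell cannot be told apart. Of 10 fibroblast markers 2 were higher and 6 lower. Vim and Pdgfra rose, with log2 fold changes of 0.22 and 0.25 (edgeR adjusted p = 0.00011 and 0.0025). Tcf21 fell most, by 1.33 on the log2 scale (edgeR adjusted p = 2e-08). Among the other lower ones were the collagen genes Col3a1 and Col1a1, with log2 fold changes of -0.53 and -0.16 (edgeR adjusted p = 6.5e-07 and 0.00052). Of 8 mesothelial markers 7 were tested, with 2 higher and 2 lower, and their sum was 151 to 159 and 106 to 120 CPM. Krt19, the nearest profile to Serpinb2, is one of them and rose, while Upk3b and Lrrn4 fell. Of 10 endothelial markers 4 were higher and 1 lower, and of 6 tested mural markers 3 were higher and 2 lower. Of the 10 cardiomyocyte markers only Tnnt2 was high enough to be tested, and it was lower (7.78 against 11.3 CPM on average).

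Transcripts of liver proteins differed between single libraries. Alb, taken up after the values were seen, had 2.54, 28.2, 22.0 and 30.7 CPM in the libraries labelled GFP and 23.1, 25.0, 29.4 and 52.8 CPM in those labelled OEIRF7, lowest in GFP replicate 1 and highest in OEIRF7 replicate 4. Apoa1 and Fgb had their lowest and highest values in these same libraries. Plg, Vtn, Serpinc1 and the Serpina1 genes of the lists above are made by liver as well, and the part of such RNA in their values was not tested. Without both libraries, a setting added after the data were seen, 4 of the 6 genes were called, Serpine2 being lost (edgeR adjusted p = 0.072).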

How the data were processed

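Libraries were grouped by their labels, 4 labelled GFP and 4 labelled OEIRF7. The authors aligned reads to GRCm38 with HISAT2, obtained gene counts from HTSeq-count, and computed FPKM with Cufflinks. Versions and the strand setting are not given in the sources used here. The deposited counts are whole reads per gene, not normalized. The deposited FPKM are scaled to length and depth and served for levels between genes and as alternatives. The labels and the methods name different RNA and library kits. In 121 symbols of the table the letters "GFP" stood in place of others, and these were restored through the gene ID. Columns of the authors' own comparisons (fold changes and p-values) were not used.

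Counts were tested with edgeR 4.0.16 (R 4.3.3), with TMM scaling, filterByExpr, the quasi-likelihood test and Benjamini-Hochberg adjustment over 13533 genes. The study used DESeq, which edgeR replaced here. Intervals are 95% from the fit. Alternatives were DESeq2 1.42.0, limma 3.58.1 on log2(FPKM + 1) and log2(FPKM + 0.1), other filters and scalings, the replicate number as a block, and leaving out libraries. On simulated data with 200 of 13533 genes changed 2-fold between the groups, edgeR recovered 177 with 14 false calls. The simulated counts were drawn with the dispersions fitted to these libraries. Far fewer genes were changed there than were called in the real data, and none by less than 2-fold. The simulation therefore does not gauge smaller calls such as that of Serpine2. Replicates differed beyond sampling noise (chi-square per degree of freedom 2.91 to 9.94), so none was counted as a duplicate.

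The 6 genes and all lists (plasminogen system, coagulation and thrombin, serpin family, PEDF receptors and markers of 6 cell types) were chosen with earlier results of these data known. Named from the lists were genes past an adjusted p of 0.05 and a log2 fold change of 1 with a mean above 1 CPM, at most 8 a list, the 3 nearest profiles of Plaur and of Serpinb2, and neighbouring genes. Others are described as list members. An item is not reported here, and lists and their counts leave it out. Windows before annotated starts came from RefSeq (GRCm38.p6), and gene positions from a GRCm38 annotation. Precision is set by the counts given, and intervals cover the spread between these libraries.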

Additional observations from a re-analysis of the deposited data

Results flagged for a closer look

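A single library stood far from the other 3 of its group in 2 of the 42 groups of 4 libraries examined, by Dixon's criterion, which chance meets in about 1 in 20 groups of genes not chosen by their profile. Grem1, one of the nearest profiles to Serpinb2, had 26.3 CPM in OEIRF7 replicate 3, against 18.3 to 18.9 CPM in the other libraries labelled OEIRF7. It was chosen by its likeness to Serpinb2, which is also highest in that library, so this chance rate does not apply to it. Serpinb6c had 5.10 CPM in OEIRF7 replicate 2, against 3.18 to 3.37 CPM in the others. None of the 6 genes met the criterion, although Plat in OEIRF7 replicate 3 came close, with a gap to the next library of 0.826 of the range.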

How the results depend on the processing

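Plaur, Plau, Serpinb2 and Serpinf1 kept their direction and their call in each alternative in which they were tested. Plat was not called in any of the 17 alternatives, and it reversed to -0.0765 without OEIRF7 replicate 3, with a range of -0.0765 to 0.223 over the fits without 1 library. Serpine2 was no longer past the threshold with a filter of at least 1 count in total (log2 fold change 0.0721, adjusted p = 0.078), with limma on log2(FPKM + 1) (0.0110) or log2(FPKM + 0.1) (0.0111), and without GFP replicate 1 and OEIRF7 replicate 4 together (0.0835, adjusted p = 0.072). Without 1 library at a time it ranged from 0.0710 to 0.0836, and 6 of these 8 fits lost the call. The other 5 settings, DESeq2 among them, kept it. Members past a log2 fold change of 1 numbered 1 instead of 2 where each library needed at least 10 counts, since Serpinb2 was then not tested, and 1 with limma on log2(FPKM + 1), where Serpinb2 was at 0.83. They numbered 3, Plau being added, without GFP replicate 1 (Plau at 1.01) and without GFP replicate 1 and OEIRF7 replicate 4 together (1.05). On the log2(FPKM + 1) scale 435 genes were called past 1, against 1158 of the 13533 genes tested with edgeR. The limma fits took genes with a mean above 0.1 FPKM, so these counts come from different sets of genes.

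Same-numbered libraries deviated together weakly, with correlations of 0.079 to 0.138, yet each of the 8 libraries correlated best with its own number. This is a hint from the data and not the design. The labels state no pairing, so the numbers were not taken as pairs in the main fit. With the replicate block 5 of the 6 genes and 8211 of all genes were called (7969 without). Plat then had 0.11 (edgeR adjusted p = 0.12) and Serpine2 0.08 (edgeR adjusted p = 0.029). The SE of Plat was 0.058 with the block and 0.14 without, so its interval given above is that of the unpaired fit. No call among the 6 genes changed with the block. The depth limits Serpinb2 most, with 9 to 21 counts in the libraries labelled GFP. The alternatives were also read for 15 other genes: Irf7, the list genes past a log2 fold change of 1 and the nearest profiles. Their direction and call held in all 254 values under alternatives, which a choice by size or by profile favours. Other named genes with smaller differences, such as Mrc2 and F3, were not followed through the alternatives. Sizes of the 15 fell on the log2(FPKM + 1) scale, to -0.35 for Lrp2, 0.72 for Serpinb6c, 1.07 for Serpinb1b, 1.71 for Serpinb9e and 2.02 for Serpina3g. Without OEIRF7 replicate 2, Serpinb6c was at 0.95.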
